A study of Mus musculus with 9 samples.

Results

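The mitochondrial ribosomal protein genes were described across RIPiT-seq libraries of mouse embryonic stem cells (ESCs). They were all rows of the gene table whose symbol begins with Mrpl or Mrps and a number, which gave 76 genes of 24132 in the table. By symbol, 47 belonged to the large subunit and 29 to the small subunit. The choice used no measured value, and all 76 genes were among the 9787 that passed the filter, which asked for an RPKM of 1 or more in 2 or more libraries.

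RIPiT-seq pulls a tagged protein down with 2 antibodies in series and sequences the RNA that comes with it. All cells were feeder-free ESCs of a 129/B6 F1 hybrid strain, cultured with LIF, infected with a lentivirus, selected with puromycin and crosslinked with formaldehyde. The WDR5 WT line carried FLAG-HA-tagged wild type human WDR5, the WDR5 F266A line carried the FLAG-HA-tagged F266A mutant, in which an alanine replaces a phenylalanine of the RNA binding surface and the N terminus is shortened, and the empty vector line carried no tagged protein. Each of the 3 lines gave 1 input library of total RNA and 2 IP libraries, 9 in all, and the comparison between lines asks which RNAs come down with WDR5 through its RNA binding surface. The tagged lines were clones picked for near-endogenous levels of the tagged protein, so clone and construct cannot be told apart, and nothing in the sources says whether the 2 IPs of a line came from separate cultures.

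Mitochondrial ribosomes translate the few proteins encoded by the mitochondrial genome, all of them subunits of the complexes of oxidative phosphorylation. The ribosomal RNAs are made in mitochondria, but the ribosomal proteins are encoded in the nucleus, translated in the cytosol and imported. Many of these proteins have bacterial counterparts, and others are found only in mitochondrial ribosomes.

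RPKM, reads scaled to transcript length and to the mapped reads of the library, is the unit of all levels below. Estimated depth ranged from 13400000 to 50200000 mapped reads, and the median of a gene in a library was about 239 reads. In at least 1 library 31 of the 76 genes had under 100 reads, and the lowest was about 7, for Mrpl41. Reads on genes made up 20.1% to 22.6% of an input and 27.2% to 29.5% of an IP, and this difference is part of the RPKM of every gene. The F266A input had the lowest share, at 20.1%, against 22.3% in the WDR5 WT input and 22.6% in the empty vector input. All 10 ESC markers were detected in each library, with summed RPKM of 540 to 863. The list of 10 fibroblast or feeder markers summed to 17.4 to 44.9 RPKM, most of it from Fn1, with 3 to 5 of its genes at 0. The WDR5 F266A IP 1 stood apart from the input and IP 2 of its own line. Its 3 Y-linked genes Ddx3y, Uty and Eif2s3y summed to 0.038 RPKM, against 4.43 and 7.21 in the F266A input and IP 2, 0.182 to 0.324 in WDR5 WT and 7.41 to 9.48 in the empty vector. Its 14 primitive endoderm markers summed to 22.3 RPKM, against 59.5 and 75.4 in the F266A input and IP 2 and 23.2 to 30.4 in the other lines. Counts of genes called in F266A against its input, or between the F266A and empty vector IPs, are therefore also given without that library. The mouse Wdr5 row held 5.85 to 12.9 RPKM over the 9 libraries, and it does not measure the human construct.

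The promoters of the members, which the choice by symbol did not use, were set beside those of other genes. RefSeq promoter windows of 300 bases, from 250 before to 50 after a transcript start on GRCm38.p6, were at hand for 67 of the 76 genes, and their median GC content was 58.3%, against 61.3% for genes that passed the filter and 52.7% for all genes of the promoter table. The windows are shown for Mrpl36 and Mrps18b, the genes with the highest IP over input, for Mrpl21, the gene with the lowest, for Mrpl53, the gene whose inputs differed most between lines, and for Mrps11 and Mrpl46, whose windows face each other and share 141 bases. Capitals mark the motifs searched on both strands, which were GCGCATGC (the core bound by NRF1, an activator of nuclear genes for mitochondrial proteins), CCGGAAG (ETS factors), AAGATGGC (YY1), GGGCGG (Sp1), CCAAT and TATAAA. Motifs on the minus strand appear as their reverse complement, and no motifs overlap in the windows shown.
Mrpl36 (chr13:73330759-73331058, plus strand): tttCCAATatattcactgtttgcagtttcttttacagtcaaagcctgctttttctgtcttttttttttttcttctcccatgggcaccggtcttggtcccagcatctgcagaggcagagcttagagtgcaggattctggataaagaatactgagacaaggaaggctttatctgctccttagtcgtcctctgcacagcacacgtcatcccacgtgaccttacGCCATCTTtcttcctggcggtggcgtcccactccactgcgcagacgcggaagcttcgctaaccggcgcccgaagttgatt
Mrps18b (chr17:35916391-35916690, minus strand): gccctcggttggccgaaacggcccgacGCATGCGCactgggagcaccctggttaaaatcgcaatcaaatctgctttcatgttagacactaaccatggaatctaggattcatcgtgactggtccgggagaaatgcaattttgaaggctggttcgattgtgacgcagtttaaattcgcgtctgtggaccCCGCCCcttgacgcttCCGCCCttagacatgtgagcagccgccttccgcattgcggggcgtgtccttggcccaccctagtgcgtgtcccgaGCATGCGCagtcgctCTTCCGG
Mrpl21 (chr19:3282792-3283091, plus strand): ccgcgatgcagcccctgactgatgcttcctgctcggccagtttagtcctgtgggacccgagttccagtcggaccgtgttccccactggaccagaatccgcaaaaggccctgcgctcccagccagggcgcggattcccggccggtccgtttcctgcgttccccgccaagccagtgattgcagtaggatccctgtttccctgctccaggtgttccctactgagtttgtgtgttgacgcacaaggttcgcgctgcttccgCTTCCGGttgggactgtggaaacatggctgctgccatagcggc
Mrpl53 (chr6:83108858-83109157, plus strand): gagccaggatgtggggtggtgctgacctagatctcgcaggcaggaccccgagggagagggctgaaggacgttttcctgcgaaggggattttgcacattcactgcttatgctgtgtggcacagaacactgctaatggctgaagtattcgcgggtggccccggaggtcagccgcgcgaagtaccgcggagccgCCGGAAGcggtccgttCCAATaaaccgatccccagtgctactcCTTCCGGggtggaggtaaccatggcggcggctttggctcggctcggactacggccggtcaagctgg
Mrps11 (chr7:78782881-78783180, plus strand): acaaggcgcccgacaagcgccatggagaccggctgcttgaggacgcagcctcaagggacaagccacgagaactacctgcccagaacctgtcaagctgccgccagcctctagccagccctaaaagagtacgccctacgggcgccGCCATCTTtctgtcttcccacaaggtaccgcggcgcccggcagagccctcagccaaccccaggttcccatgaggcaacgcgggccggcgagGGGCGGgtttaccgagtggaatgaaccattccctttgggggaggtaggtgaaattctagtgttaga
Mrpl46 (chr7:78783040-78783339, minus strand): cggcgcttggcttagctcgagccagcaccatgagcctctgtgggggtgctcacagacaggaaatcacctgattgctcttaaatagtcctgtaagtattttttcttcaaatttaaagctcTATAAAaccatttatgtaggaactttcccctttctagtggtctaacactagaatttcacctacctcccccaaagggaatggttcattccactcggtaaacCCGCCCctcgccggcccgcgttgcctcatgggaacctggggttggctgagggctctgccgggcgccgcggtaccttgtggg
The windows of Mrpl36 and Mrps11 hold the YY1 motif, that of Mrps18b holds the NRF1 core near both of its ends, and those of Mrpl21 and Mrpl53 hold ETS motifs. A gene was counted when any of its windows held the motif, and the sets differ in windows per gene. The 67 members had 73 windows, the 6937 genes that passed the filter had 8807, and all 27025 genes had 32851. Among the 67 genes, 12 had the YY1 motif, or 17.9% against 6.2% of the 6937 genes and 3.19% of all 27025 genes. The ETS motif was in 24 genes, or 35.8% against 23.2% and 9.93%, and the NRF1 core was in 8 genes, or 11.9% against 7.03% and 3.05%. The Sp1 motif was in 33 genes, or 49.3% against 72.1% and 38.2%. CCAAT was in 40.3% of the members, against 43.9% and 41.1%, and TATAAA in 7.46%, against 7.93% and 15.7%. These matches are letters in a window and do not show that a factor binds.

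The genes were expressed at low to moderate levels in every library. The inputs of WDR5 WT, F266A and empty vector cells had medians of 3.37, 2.95 and 3.32 RPKM over the members. The medians of the paired IPs were 4.78 and 4.48 for WDR5 WT, 4.89 and 4.39 for F266A, and 4.72 and 4.28 for the empty vector. In each library this was above the median of all genes that passed the filter, which was 2.32 to 2.58 RPKM in the inputs and 3.28 to 3.38 in the IPs. The large and small subunit genes did not stand apart, with medians of 3.36 and 3.38 RPKM in the WT input. The cytosolic ribosomal proteins, the other set of nuclear ribosomal genes, had a median of 132 RPKM over the 9 libraries, against 4.13 for the large and 4.42 for the small mitochondrial subunit.

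**Figure D1:**
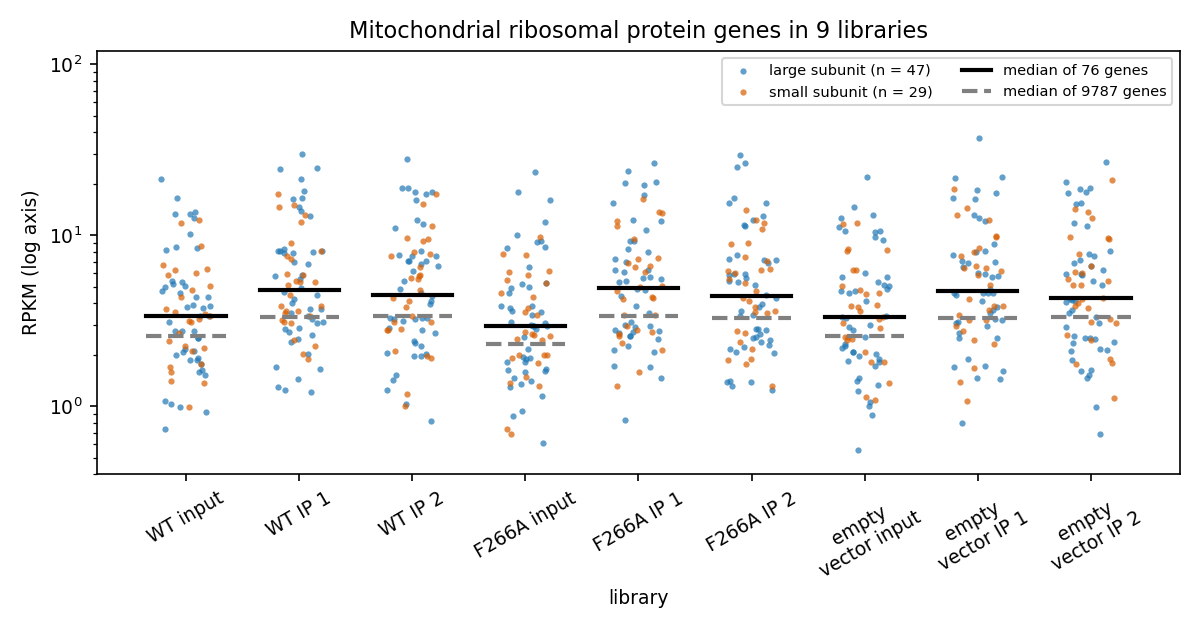
RPKM of the 76 mitochondrial ribosomal protein genes in each of the 9 libraries, on a log axis; each point is 1 gene, solid bars are their medians and dashed bars the medians of the 9787 genes that passed the filter. The solid bar lies above the dashed bar in every library, and both are higher in the IPs than in the inputs.

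At the top of the range stood 5 large subunit genes. Mrpl30, a counterpart of bacterial L30, had inputs of 21.3 (WDR5 WT), 17.9 (F266A) and 21.9 RPKM (empty vector), with IPs of 30 and 27.9, 26.5 and 26.5, and 37.1 and 26.9 for these lines. Mrpl34, a counterpart of bacterial L34, held 16.6, 23.5 and 14.7 RPKM in the same inputs. The F266A input was the highest of the 3 for Mrpl34, and it was the lowest for Mrpl30. Mrpl42, a protein particular to mitochondrial ribosomes, held 12.7, 16.1 and 10.6 RPKM. Mrpl12, the stalk protein to which translation factors dock, held 13.4, 12 and 12.7 RPKM. Mrpl52 held 13.8, 9.26 and 13.2 RPKM. The inputs of Mrpl12 lay within 1.11-fold of each other, and those of Mrpl52 spread over 1.44-fold on the log2 (RPKM + 1) scale.

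At the bottom stood Mrpl41, Mrps18c, Mrpl1, Mrpl44 and Mrps28. Mrpl41 held 0.731, 0.609 and 0.552 RPKM in the 3 inputs, in the same order, and 0.688 to 1.24 in the IPs. Mrpl44, which carries a ribonuclease III-like fold, held 1.03, 0.877 and 1.23 RPKM in the inputs and at most 1.88 in the IPs. Apart from Mrpl1, at about 88 to 227 reads in a library, these genes rest on few reads. Inputs of lines this close to each other cannot be ordered with 1 input per line. The 3 counterparts of bacterial S18 lay at different levels. Mrps18b held 5.46 to 8.16 RPKM in the inputs, Mrps18a 2.46 to 3.90 and Mrps18c 0.736 to 1.37, and these ranges did not overlap.

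On the deposited RPKM scale, RNA of mitochondrial ribosomal proteins was higher in IP than in input in all 3 lines. These include the line with no tagged protein. The enrichment score of an IP was its log2 (RPKM + 1) minus that of its own line's input. The members' median scores were 0.43 and 0.35 for WDR5 WT, 0.56 and 0.43 for F266A, and 0.41 and 0.31 for the empty vector. Over all genes that passed the filter it was 0.27 and 0.27, 0.39 and 0.35, and 0.27 and 0.26. Scores above 0 were found for 71 to 74 of the 76 genes in each IP, and 62 of the 76 were above 0 in all 6, against 66.3% of all genes. Averaged over lines, the median score was 0.40, or 1.32-fold, against 0.30, or 1.23-fold, for all genes, and 69.5% of all genes lay below the members' median. The large subunit median was 0.40 and the small subunit median 0.39.

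**Figure D2:**
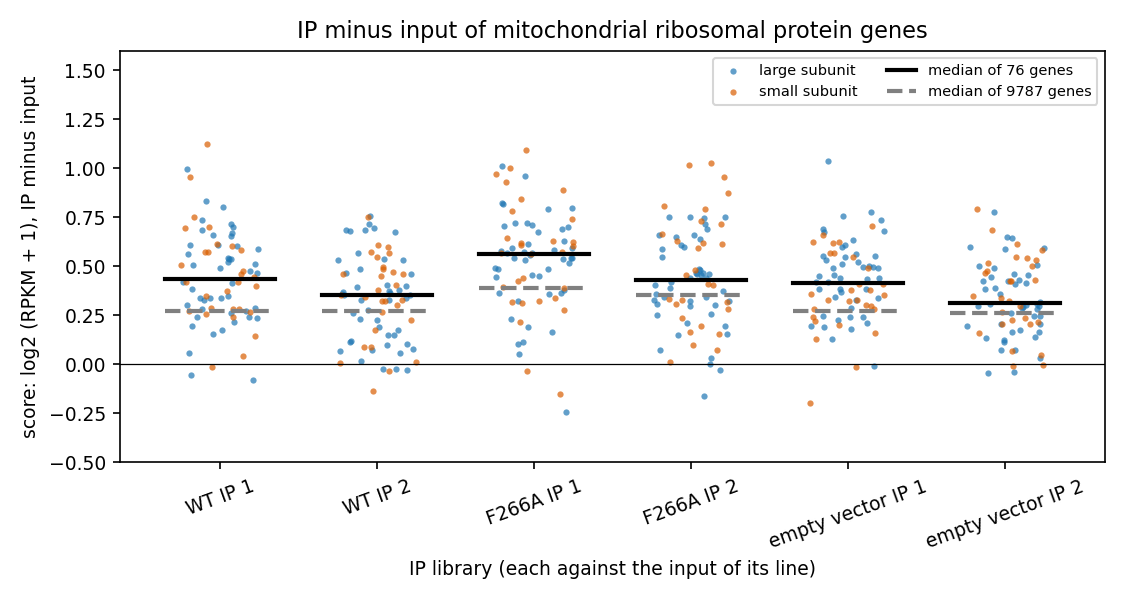
Enrichment score, IP minus input on the log2 (RPKM + 1) scale, of the 76 genes in each of the 6 IPs; solid bars are their medians and dashed bars the medians of 9787 genes. The members' median is above that of all genes in each IP, and the empty vector medians of 0.41 and 0.31 lie near the WDR5 WT medians of 0.43 and 0.35.

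In the limma fit of IP minus input averaged over lines, 59 of the 76 genes were higher in the IPs and 0 were lower at an adjusted p under 0.05. That is 77.6%, against 56.4% of all genes tested. By subunit, 38 of 47 large and 21 of 29 small subunit genes were higher. Without the F266A line 37 genes passed, the share of all genes called in either direction went from 56.9% to 30.7%, and the members' median went from 0.40 to 0.38. Without F266A IP 1 alone 58 passed. With libraries scaled to equal medians, quantile normalized or scaled to an equal share of reads on genes, 0 genes passed by limma, and the members' median minus that of all genes was then 0.10, 0.08 and 0.08, against 0.10 on the deposited scale. Unless another scaling is named, values of single genes below are on the deposited scale and carry the shift of all genes. The median of all genes moved from 0.30 to -0.01 with equal library medians.

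Mrpl36, the counterpart of the small bacterial protein L36, had the highest mean score. It held 10.2 RPKM in the WDR5 WT input and then 21.2 and 17.3 in its IPs, 10.1 and then 20.5 and 16.4 in F266A, and 10.6 and then 17.6 and 18.9 in the empty vector. All 6 IPs were above all 3 inputs, and the difference was 0.80 (SE 0.11, adjusted p = 0.003, limma). Mrps18b held 6.30 and then 13.2 and 9.67 RPKM in WDR5 WT, 5.46 and then 11.3 and 8.97 in F266A, and 8.16 and then 13.1 and 13.7 in the empty vector. Its difference was 0.73 (SE 0.12, adjusted p = 0.0037), and 30.5% of its exon bases overlap a non-coding gene on the opposite strand. Mrps27, an RNA-binding protein of the small subunit, differed by 0.72, Mrps17, a counterpart of bacterial S17, by 0.70, and Mrps24, a counterpart of bacterial S3, by 0.69, all with an adjusted p under 0.05. Of the exon bases of Mrps27, 22.6% overlap a non-coding gene on the opposite strand. Mrps36, since assigned to the oxoglutarate dehydrogenase complex, differed by 0.59 (SE 0.09, adjusted p = 0.0037).

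Other members showed little or no rise. Mrpl21, the counterpart of bacterial L21, held 1.85 and then 1.70 and 1.97 RPKM in WDR5 WT, 1.29 and then 1.46 and 1.41 in F266A, and 1.71 and then 1.69 and 1.63 in the empty vector. Its inputs and IPs overlapped, and the difference was 0.02 (SE 0.08, adjusted p = 0.859). Mrps5, the counterpart of bacterial S5, held 8.69 and then 8.96 and 9.29 RPKM, 5.81 and then 6.90 and 6.28, and 8.33 and then 9.87 and 9.74, in the same order of lines. Its difference was 0.14 (SE 0.08, adjusted p = 0.144), with every IP above the input of its own line. Mrps25 had 0.19, Mrpl23 0.19 and Mrpl35 0.20, and none of them passed. With libraries scaled to equal medians the values of Mrpl21, Mrps5, Mrps25, Mrpl23 and Mrpl35 were below 0.

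Genes with known functional positions lay between these extremes. Mrpl12 rose by 0.54 (SE 0.13, adjusted p = 0.01), and Mrpl11, which with it forms the site that activates the GTPase factors, rose by 0.34 (SE 0.10, adjusted p = 0.0251). Mrps12, a protein of the decoding centre, rose by 0.31 (SE 0.08, adjusted p = 0.013), with a value of -0.0003 at equal library medians. Mrps18a rose by 0.49 and Mrps18c by 0.41, the latter with an adjusted p of 0.0484. Across the 76 genes the mean score went with the input level, with Pearson's r of 0.42 and Spearman's rho of 0.48, against 0.26 and 0.34 over 9787 genes. The points share their input libraries, and the log2 (RPKM + 1) scale understates the change of low genes, so these correlations are descriptions. With log2 exon length the members' r was -0.12 and rho -0.09, and their median exon length was 1700.5 bases against 3586 for all genes with a length.

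**Figure D3:**
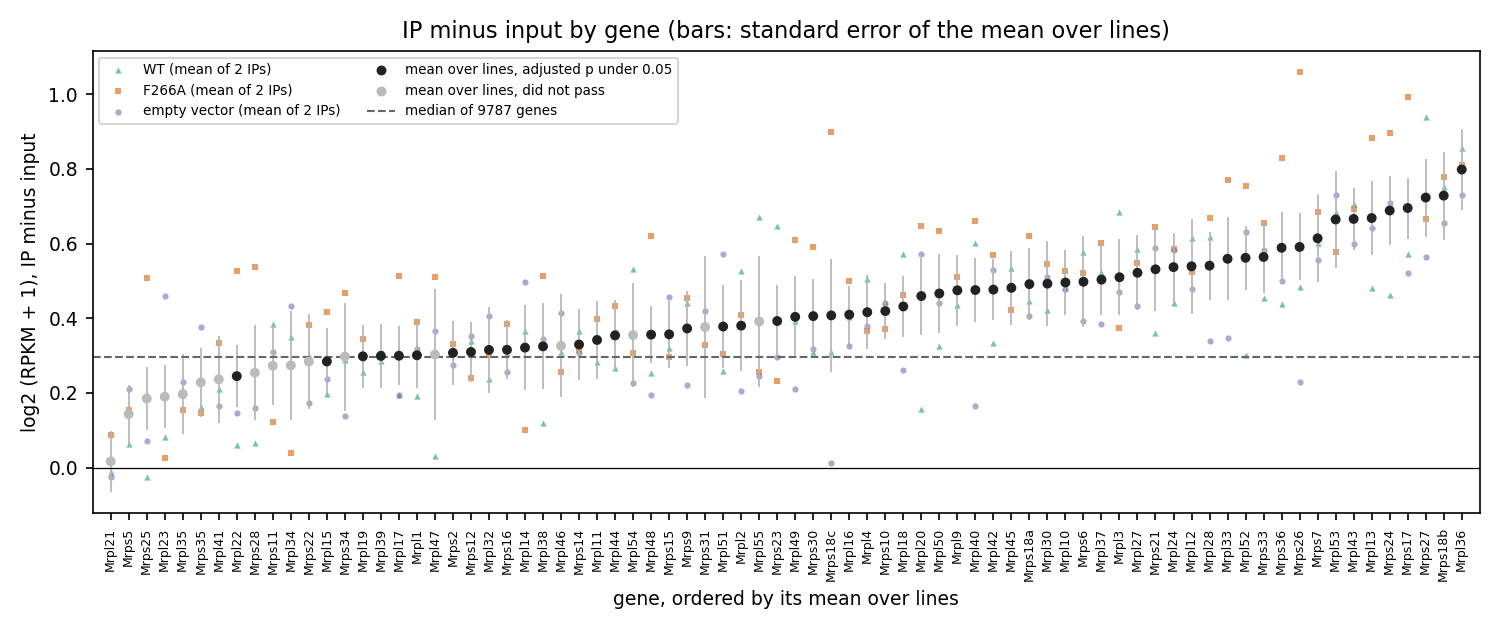
IP minus input of each of the 76 genes on the log2 (RPKM + 1) scale, ordered by the mean over lines (large points, with the standard error from the limma fit); small symbols are the mean of the 2 IPs of each line. From Mrpl21 at 0.02 to Mrpl36 at 0.80 the values form a continuous series, and the symbols of the 3 lines are mixed.

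Taken line by line against the input of the same line, members passed the test in F266A and not in the other lines, and this depended on the setting. In WDR5 WT 0 of 76 genes passed, with 0.174% of all genes called higher, and 34 members had an unadjusted p under 0.05. In the empty vector 0 of 76 passed, with 0.613% of all genes, and 33 had an unadjusted p under 0.05. In F266A 28 of 76 passed, or 36.8%, against 19.3% of all genes. The median difference over all genes was 0.37 in F266A, against 0.27 in WDR5 WT and 0.27 in the empty vector. The F266A input also had the lowest share of reads on genes. Mrps26 led with 1.80 RPKM in the F266A input and 4.97 and 4.70 in its IPs, a difference of 1.06 (SE 0.16, adjusted p = 0.0379, limma). In WDR5 WT Mrps26 held 3.14 and then 5.33 and 4.30, and in the empty vector 3.33 and then 3.83 and 4.32. The F266A input was thus the lowest library for this gene while its IPs lay among those of the other lines. Leaving out F266A IP 1, empty vector IP 1 or empty vector IP 2 left 0 members called in F266A, and 0% of all genes were then called. The members' median in F266A was 0.43 without F266A IP 1 and stayed at 0.51 without either empty vector IP. Against the mean of the 3 inputs 44 members passed in WDR5 WT, 36 in F266A and 49 in the empty vector. Among the 33 members with a mean RPKM of 5 or more, 6, 23 and 9 passed in these lines. Shares of all genes called are not given for these settings, so these counts are not results particular to the members.

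No member differed between lines once the inputs were subtracted. For WDR5 WT against F266A, WDR5 WT against the empty vector and F266A against the empty vector, 0 of 76 genes passed limma, where 0% of all genes passed each time, and 3, 0 and 4 members had an unadjusted p under 0.05. The members' median differences were -0.08, 0.0017 and 0.09, against -0.09, 0.01 and 0.10 for all genes. The median standard error of a member was 0.24, against a median rise over input of 0.40. The smallest adjusted p was that of Mrps26 in F266A against the empty vector, with a difference of 0.83 (SE 0.22, adjusted p = 0.541).

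The study's rule for enrichment in WDR5 WT asks that both WT scores are positive and that the lower of them exceeds every score of the control lines, F266A and empty vector. It was met by 4 of 76 members, or 5.26%, against 5.29% of all genes that passed the filter. With the F266A IPs in the tested place 19 members met it, or 25% against 23.5%, and with the empty vector IPs 2 members met it, or 2.63% against 4.48%. Mrps23, a protein particular to mitochondrial ribosomes, had the widest margin, with WT scores of 0.70 and 0.60 over F266A scores of 0.39 and 0.07 and empty vector scores of 0.36 and 0.24. Mrpl18, which binds the RNA of the central protuberance, had WT scores of 0.61 and 0.53 against 0.46 and 0.47, and 0.33 and 0.19. Mrpl3, the counterpart of bacterial L3, had 0.80 and 0.57 against 0.54 and 0.21, and 0.44 and 0.50. Mrps27 had 1.12 and 0.75 against 0.74 and 0.59, and 0.55 and 0.58. The margins of Mrpl18, Mrpl3 and Mrps27 were 0.07, 0.03 and 0.01, each below the gap between the 2 WT scores of that gene, and with a required margin of 0.1 Mrps23 was the 1 gene left. Without WT IP 2 the rule took 13 members, without F266A IP 1 it took 11, and without WT IP 1 or empty vector IP 2 it took 6. Leaving out an IP makes the rule easier to meet for any gene. The shares of all genes are not given for these settings, so the higher counts are not results particular to the members.

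Compared directly, the IPs of WDR5 WT and the empty vector did not differ for any member, with 0 of 76 passing limma, 0% of all genes passing and 1 member at an unadjusted p under 0.05. For WDR5 WT against F266A 0 of 76 passed, with 1.16% of all genes called and 9 members at an unadjusted p under 0.05, and leaving out F266A IP 1 also gave 0. For F266A against the empty vector 4 of 76 passed, or 5.26%, against 4.55% of all genes. These comparisons share libraries, so the values of each are given side by side.

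Mrpl42 held 23.7 and 25.1 RPKM in the F266A IPs, against 16.2 and 15.4 for the empty vector and 16.3 and 16.2 for WDR5 WT. Both F266A IPs were above the 4 others, by 0.60 against the empty vector (SE 0.11, adjusted p = 0.0366, limma), and WT minus F266A was -0.56 (adjusted p = 0.0706). Mrpl19, the counterpart of bacterial L19, held 2.66 and 2.49 RPKM in F266A, against 1.45 and 1.47 in the empty vector and at most 1.52 in WDR5 WT. It differed by 0.54 from the empty vector (SE 0.12, adjusted p = 0.0457), and WT minus F266A was -0.59 (adjusted p = 0.0681). Of its exon bases 36.0% overlap AW146020 on the opposite strand. Mrpl53, a protein particular to mitochondrial ribosomes, held 5.68 and 5.88 RPKM in F266A, 3.79 and 2.12 in the empty vector and 3.22 and 3.22 in WDR5 WT. It differed by 0.81 from the empty vector (SE 0.18, adjusted p = 0.0495), and WT minus F266A was -0.69 (adjusted p = 0.138). Of its exon bases 87.1% are shared with Ccdc142 on the same strand, so reads of the pair cannot be told apart. Mrps5 was the 1 gene that was lower in F266A, at 6.90 and 6.28 RPKM against 9.87 and 9.74 in the empty vector and 8.96 and 9.29 in WDR5 WT, a difference of -0.51 (SE 0.11, adjusted p = 0.0457). Leaving out any 1 of the 6 IPs left 0 or 1 of these 4 genes called, and that 1 gene was Mrpl42. After quantile normalization Mrpl42 was again the 1 gene called.

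In the inputs these 4 genes lay in the same direction, Mrpl42 at 16.1 RPKM in F266A against 12.7 in WDR5 WT and 10.6 in the empty vector, and Mrps5 at 5.81 against 8.69 and 8.33. With 1 input per line there is no test, and a difference past 1.5-fold on the RPKM + 1 scale was counted. Between any pair of lines this held for 6 of 76 members, or 7.89%, against 12.3% of all genes. For F266A against WDR5 WT it held for 2 members, or 2.63% against 8.06%, for F266A against the empty vector for 5, or 6.58% against 9.55%, and for WDR5 WT against the empty vector for 0, against 1.14%. Mrpl53 held 3.54 RPKM in F266A, against 1.62 in WDR5 WT and 1.33 in the empty vector. Mrpl35, the counterpart of bacterial L35, held 1.88, 0.927 and 0.893 RPKM in the same order, and Mrpl19 held 1.82, 0.989 and 1.0. In each of these 3 genes the F266A input was the highest and the other inputs lay close together. In Mrps24, Mrps26 and Mrpl33 it was the lowest, at 7.70, 1.80 and 6.48 RPKM against 12.4, 3.14 and 8.53 in WDR5 WT and 11.8, 3.33 and 10.5 in the empty vector.

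Mrpl35, Mrpl19 and Mrpl53 lie on the same stretch of chromosome 6, which was noticed after their values were seen. Their mm9 positions are chr6:71762997-71773804, chr6:81907845-81915952 and chr6:83059089-83059933. Relative to the same fraction of the other lines, and less the median of all genes, Mrpl35 was higher by 0.71 in the F266A input, 0.47 in F266A IP 1 and 0.60 in F266A IP 2. Mrpl19 was higher by 0.61, 0.59 and 0.57, and Mrpl53 by 0.99, 0.71 and 0.80. The neighbours of each gene, up to 10 on either side, had medians of 0.60 to 0.73 in these libraries, whatever their function. The limits of 65 and 85 Mb were set with these values known, so the counts within them are descriptions. From 65 to 85 Mb, 25 of 44 genes tested were called higher in the F266A IPs than in the empty vector IPs. Of these 44, which include Mrpl35, Mrpl19 and Mrpl53, 1 was called lower, and the median difference was 0.71. On the rest of chromosome 6, 7 of 312 were called higher, with a median of -0.04. Without F266A IP 1, 17 of the 44 were called higher and 1 lower, with a median of 0.60. The other members on chromosome 6, Mrps33, Mrps25, Mrpl51 and Mrps35, lie outside the stretch and ranged from -0.36 to 0.27. Ptcd3, a mitoribosomal protein under another symbol, lies within it at chr6:71830642-71858756. Its IPs held 23.6 and 19.0 RPKM in F266A, against 11.5 and 12.9 for the empty vector and 10.8 and 8.37 for WDR5 WT, a difference of 0.75 from the empty vector (SE 0.16, adjusted p = 0.0419). Without F266A IP 1 this was 0.60 (SE 0.17, adjusted p = 0.0927, limma). The WT minus empty vector medians of the 5 Mb bins from 65 to 85 Mb lay between -0.05 and 0.14. The part of position or copy number in these differences was not tested.

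Chromosome 8 gave a similar pattern with 1 library out of step. Over its 497 tested genes with a position the median was 0.37 in the F266A input and 0.41 in F266A IP 2, but 0.02 in F266A IP 1, while medians of the other chromosomes lay between -0.10 and 0.04. Its 2 members followed. Mrpl34, at chr8:73988825-73989651, was at 0.67 in the input, 0.53 in IP 2 and -0.08 in IP 1. Mrps31, at chr8:23521812-23540137, was at 0.21 in the input, 0.54 in IP 2 and -0.47 in IP 1. In RPKM, Mrps31 held 2.71 in the F266A input, 5.51 in IP 2 and 2.34 in IP 1, and 2.40 to 4.04 in the other lines. IP minus input of these genes in F266A therefore ran from -0.24 to 0.32 for Mrpl34 and from -0.15 to 0.81 for Mrps31. Both genes failed the test over lines, with adjusted p of 0.134 and 0.118.

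**Figure D4:**
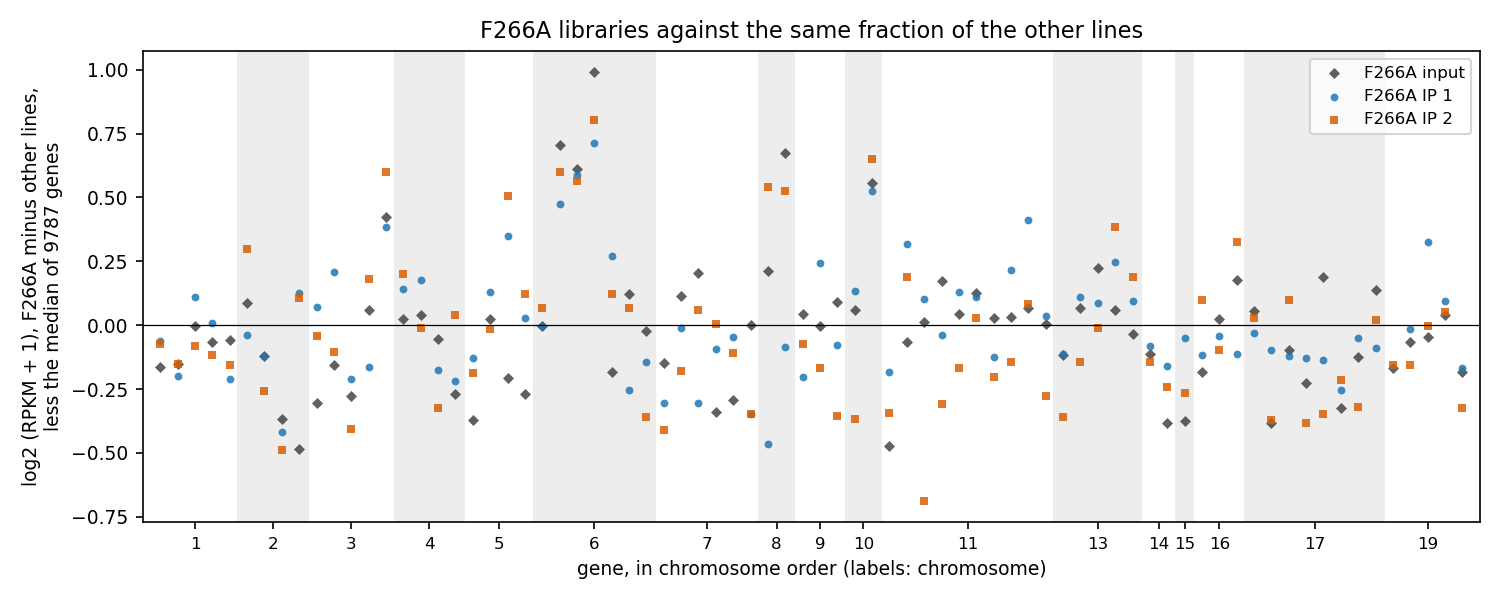
Difference between each F266A library and the same fraction of the other lines for the 76 genes in chromosome order, on the log2 (RPKM + 1) scale, less the median of 9787 genes. Of the members on chromosome 6, Mrpl35, Mrpl19 and Mrpl53 stand at 0.47 to 0.99 in all 3 libraries, and the 2 members on chromosome 8 are high in the input and IP 2 but not in IP 1.

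Mrpl42 on chromosome 10 and Mrps21 on chromosome 3 were also higher in all 3 F266A libraries, without their neighbours. Mrpl42 stood at 0.55, 0.53 and 0.65 in the F266A input, IP 1 and IP 2, where its 20 neighbours had medians of 0.02 to 0.03. Mrps21, a counterpart of bacterial S21, stood at 0.42, 0.38 and 0.60, where its neighbours lay between -0.05 and 0.07. In RPKM, Mrps21 held 6.15 in the F266A input and 9.54 and 10.8 in its IPs, 4.76 and then 5.37 and 7.58 in WDR5 WT, and 4.77 and then 7.53 and 7.81 in the empty vector. WT minus F266A in the IPs was -0.60 for Mrps21 (SE 0.16, adjusted p = 0.132).

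Cytosolic and mitochondrial ribosomal protein genes differed in how their levels lay across lines. In the F266A input all 81 cytosolic genes tested were below the mean of the other inputs, with a median of -0.63. The mitochondrial median was -0.12 with 61 of 76 below, or 80.3% against 69.1% of all genes, whose median was -0.11. WDR5 WT input minus empty vector input had a cytosolic median of -0.19, with 75 of 81 below 0, or 92.6% against 49.9% of all genes. The mitochondrial median there was -0.02, with 55.3% below 0. WDR5 WT minus empty vector in the IPs had a cytosolic median of -0.14. In F266A IP 1 and IP 2 the cytosolic medians against the 4 other IPs were -0.76 and -0.53, and the mitochondrial medians were -0.03 and -0.12. Between the F266A and empty vector IPs 52 of 81 cytosolic genes were called lower and 0 higher, with a median of -0.73. That is 64.2% called lower, where of all 9787 genes 331 were called lower and 114 higher, or 3.38% and 1.16%. Of the 80 nuclear genes of the respiratory chain and ATP synthase, whose proteins work beside the products of the mitochondrial ribosome, 5 were called lower and 0 higher, with a median of -0.19. The mitochondrial ribosomal genes had 1 called lower and 3 higher, with a median of -0.02. Without F266A IP 1, 9 of the 81 cytosolic genes were called lower, or 11.1% against 2.75% of all genes, with a median of -0.61. Then 2 of the 80 respiratory chain and ATP synthase genes were called lower, and 1 mitochondrial ribosomal gene was called higher, with medians of -0.16 and -0.11. With all IPs kept, 3 of the 81 cytosolic genes were called between WDR5 WT and F266A IPs, all higher in WT, with a median of 0.57. That is 3.7%, where 1.16% of all genes were called in either direction. With inputs subtracted, 0 cytosolic genes were called for F266A against the empty vector, with a median of -0.01, where 0% of all genes were called. The difference between the lists was not tested. F266A IP 1, which lacked the chromosome 8 and Y-linked signal of its line, shared the low cytosolic levels.

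**Figure D5:**
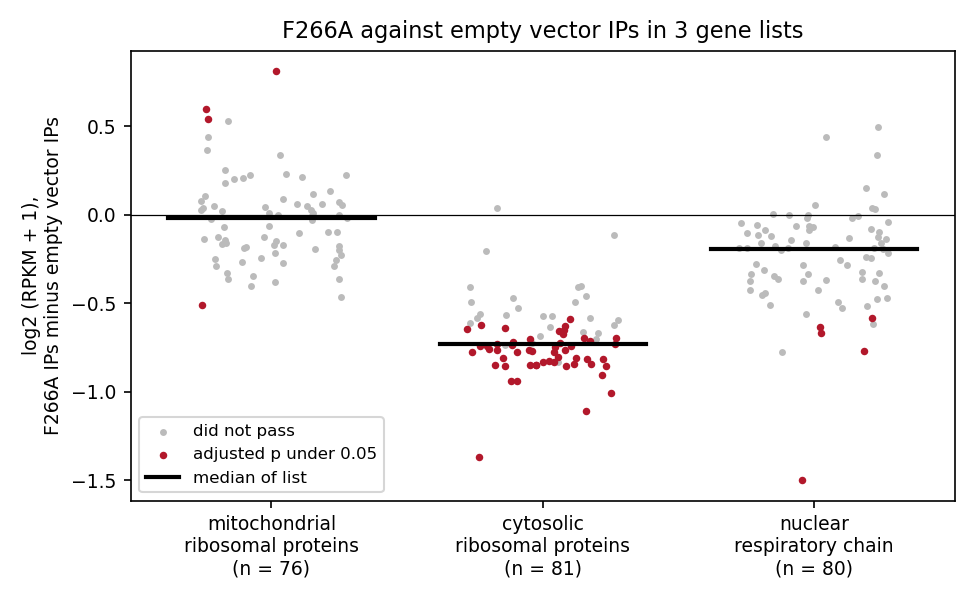
F266A IPs minus empty vector IPs on the log2 (RPKM + 1) scale for 3 gene lists; each point is 1 gene, red where the adjusted p from limma was under 0.05, and bars are list medians. The cytosolic ribosomal proteins lie around -0.73, whereas the mitochondrial ribosomal proteins lie around -0.02 with 4 called genes on both sides of 0.

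The rest of the mitochondrial gene expression apparatus gave the following counts for IP minus input averaged over lines, where 56.4% of all genes were called higher. Of 7 mitoribosomal proteins under other symbols, 6 passed as higher, with a median of 0.46, and Gadd45gip1 did not (0.23, adjusted p = 0.056). Of 10 translation factors 5 passed, with a median of 0.31, among them the elongation factors Tufm (0.28) and Gfm1 (0.37), with a value of 0.34 for Tsfm that missed the threshold. Of 16 mitoribosome assembly factors 13 passed, with a median of 0.32, led by Eral1, a GTPase that binds the small ribosomal RNA, at 0.51. Of 10 genes of mitochondrial genome expression 9 passed, with a median of 0.35, led by Slirp at 0.67, and the mitochondrial RNA polymerase Polrmt did not (0.13, adjusted p = 0.265). Of 15 tRNA synthetases 10 were higher and 1 was lower, with a median of 0.30. The lower 1 was Lars2, at 2338 RPKM in the WT input against 1896 and 1450 in its IPs, with a difference of -0.46 (SE 0.12, adjusted p = 0.0153). No other synthetase exceeded 10 RPKM, and whether the reads on Lars2 come from its mRNA was not tested. For the nuclear genes of the respiratory chain and ATP synthase 60 of 80 were higher, with a median of 0.39, and for the cytosolic ribosomal proteins 69 of 81, with a median of 0.46. The members' 59 of 76 lay among these counts.

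Between the F266A and empty vector IPs, 3 of the 58 genes tested in the smaller lists passed, or 5.17%, against 4.55% of all genes. They were Ptcd3, given above, and Malsu1, a factor that keeps unfinished large subunits from joining, at 6.29 and 6.10 RPKM against 9.94 and 10.6 (-0.65, SE 0.13, adjusted p = 0.0392), and Tefm, the mitochondrial transcription elongation factor, at 3.31 and 2.48 RPKM against 4.97 and 5.42 (-0.68, SE 0.14, adjusted p = 0.0393). Without F266A IP 1 Malsu1 was at -0.66 (adjusted p = 0.0608, limma) and Tefm at -0.83 (adjusted p = 0.0215, limma).

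Replicate 1 tended to be higher than replicate 2 for these genes. In WDR5 WT 52 of 76 members were higher in IP 1, or 68.4% against 49.0% of all genes, in F266A 50, or 65.8% against 57.0%, and in the empty vector 52, or 68.4% against 53.2%. In all 3 lines IP 1 was the higher for 20 members, or 26.3% against 18.4%, and the lower for 3, or 3.95% against 13.5%. The members' median of IP 1 minus IP 2 was 0.09, 0.12 and 0.07 in the 3 lines, against -0.007, 0.05 and 0.01 for all genes. These shifts between replicates are near in size to the members' excess over all genes in the median score, which was 0.10. Of the 76 genes, 26 share exon bases with another gene in GENCODE M1, among them Mrps11 and Mrpl46, which share 173 bases on opposite strands and had IP minus input of 0.27 and 0.33 with adjusted p of 0.055 and 0.0719. The sources do not say that strand was used in counting, so reads in such stretches cannot be assigned to 1 gene.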

How the data were processed

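RNA from 9 libraries (3 ESC lines, each with 1 input and 2 IPs) was analysed. The authors aligned reads to the mm9 genome (TopHat 1.1.3), computed RPKM with a script of their own and deposited it by RefSeq gene symbol. RPKM is divided by transcript length and mapped reads, so differences in the share of reads on genes remain, and no count test was used. The deposited table held 0 sample columns that could not be assigned. Lines, fractions and replicate numbers came from the sample titles. Depth was estimated from the lowest step of RPKM times exon length (GENCODE M1, mm9) and covers counting error only, since PCR copies are not independent.

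Differences were tested on log2 (RPKM + 1), a scale that understates the change of low genes, with limma 3.58.1 in R 4.3.3 (lmFit, 1 coefficient per line and fraction, eBayes with trend) over the 9787 genes that reached an RPKM of 1 in 2 or more libraries. The threshold was a Benjamini-Hochberg adjusted p under 0.05. The spread came from the 3 pairs of IPs, and the single inputs were assumed to vary like them, so p-values measure only the spread between these samples, which may be technical. The fit was tested on simulated data. Other steps used Python 3.11.15, numpy 2.4.6 and pandas 2.3.3. Promoter windows were those of RefSeq (GRCm38.p6), and their coordinates were not mixed with mm9.

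Genes named were the 5 highest and 5 lowest by input and by IP minus input, up to 5 per comparison called between lines, up to 6 meeting the enrichment rule, up to 6 whose inputs differed most, and members with known roles. Mrps21, Mrps31, Mrps33, Mrpl51, Mrps35, Mrps11, Mrpl46, Malsu1, Tefm and the synthetase, factor and assembly genes named singly were chosen after their values were seen. The members and lists were chosen with earlier results of these data known. Alternatives were pseudocounts, filters, scalings, a common input, eBayes without trend, a replicate block, an additive fit and leaving out each IP. The equal share of reads on genes and the fit without the F266A line were added after seeing the data.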

Additional observations from a re-analysis of the deposited data

Results flagged for a closer look

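Mrps25 had an IP minus input of -0.0242 in WDR5 WT, where both IPs were below the input, and of 0.507 in F266A, where both were above it. By limma, WDR5 WT minus F266A was -0.53 with the inputs subtracted (SE 0.21, adjusted p = 1), and 53.7% of its exon bases overlap Nr2c2 on the opposite strand. Mrpl21 had 0.0882 in F266A, with both IPs above the input, and -0.0255 in the empty vector, with both below it. F266A minus the empty vector was 0.11 by limma (SE 0.20, adjusted p = 1). Neither difference between lines passed the test.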

How the results depend on the processing

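Depth and the single inputs limit these results: 31 of 76 genes had under 100 reads in some library, and comparisons with inputs subtracted rest on 1 input per line. Counts below are members called, of 76 unless given. Shares of all genes are not given beside them. The counts therefore do not show whether the members moved more than other genes. For IP minus input averaged over lines (59), the count was 33 with all genes above 0 kept and 31 of 33 where the mean RPKM was 5 or more. It was 0 with equal library medians, quantile normalization or, chosen after seeing the data, an equal share of reads on genes, and 37 without the F266A line. Leaving out 1 IP gave 46 to 63. For F266A alone (28), the count was 0 with all genes above 0 kept, equal medians, quantile normalization or an equal share of reads on genes, and 0 to 29 without 1 IP. For WDR5 WT alone (0) it was 6 of 33 at that mean RPKM and 44 against the mean of the 3 inputs, and for the empty vector (0) it was 9 of 33 and 49 with the same settings. Against the mean of the 3 inputs the inputs cancel between lines, so that F266A and the empty vector then differed for the 4 members of the comparison of IPs alone. For F266A against the empty vector IPs (4), the count was 0 with all genes above 0 kept, 2 of 33 at that mean RPKM, 1 after quantile normalization and 0 to 1 without 1 IP. For WDR5 WT against the F266A IPs (0) it was 1 of 33 at that mean RPKM. The WT enrichment rule (4) took 1 member with a margin of 0.1, 2 at that mean RPKM, 8 after quantile normalization and 4 to 13 without 1 IP. Inputs past the fold limit (6) numbered 26 at the lower fold limit tried, 16 and 13 with pseudocounts of 0.1 and 0.5, and 3 at that mean RPKM. The median score (0.3981) was 0.5038 with a pseudocount of 0.1, 0.5033 at that mean RPKM, 0.0881 with equal medians, 0.0712 after quantile normalization, 0.1033 with an equal share of reads and 0.3897 to 0.4216 without 1 IP. Apart from that cancelling, the cause of these changes was not tested.

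Some single genes changed sign in IP minus input averaged over lines. With equal library medians the values were -0.2931 for Mrpl21, -0.1666 for Mrps5, -0.1249 for Mrps25, -0.1201 for Mrpl23, -0.1133 for Mrpl35, -0.0734 for Mrpl41, -0.0558 for Mrps28, -0.0361 for Mrpl34, -0.0118 for Mrpl19, -0.0092 for Mrpl1 and -0.0003 for Mrps12. After quantile normalization they were -0.2685 for Mrps5, -0.2305 for Mrpl21, -0.1858 for Mrpl34, -0.1401 for Mrps25, -0.1355 for Mrpl23, -0.0373 for Mrps12 and -0.0359 for Mrpl35. With an equal share of reads on genes they were -0.2262 for Mrpl21, -0.2025 for Mrps5, -0.1108 for Mrps25, -0.1103 for Mrpl23, -0.0971 for Mrpl34, -0.0285 for Mrpl35 and -0.0111 for Mrps12. Mrpl21 was at -0.0188 without the F266A line and at -0.0058 to 0.0395 without 1 IP, the lowest without WT IP 2.

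The main fit did not pair libraries by replicate number. Deviations of same-numbered IPs correlated at 0.258 (WDR5 WT with F266A), 0.112 (WDR5 WT with empty vector) and 0.012 (F266A with empty vector). Whether same-numbered IPs shared a batch was not tested. Under the replicate block the count of members averaged over lines was 66 and that of WDR5 WT alone was 1, again without the share of all genes.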
